A study of Rattus norvegicus with 8 samples.

Results

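The genes described here were 10 members of the Hippo pathway, measured by RNA-seq in primary rat nucleus pulposus (NP) cells after knockdown of Sirt6, a nuclear NAD-dependent deacylase that acts on histones. They were chosen by symbol and comprised the coactivators Yap1 and Wwtr1 (which encodes TAZ), the DNA-binding factors Tead1 and Tead3, the kinases Lats1 and Lats2, the scaffold and adaptor genes Amotl1, Amotl2 and Ajuba, and the target gene Ankrd1. All 10 were found among 13543 named genes, 1 row for each symbol, and all 10 passed the filter on low counts that left 13250 genes for testing. Both groups consisted of primary NP cells isolated from adult Sprague Dawley rats and grown in DMEM with serum, then transduced with lentivirus and selected with puromycin. Sirt6-Ctrl cells (S1 to S4) received a control shRNA, and Sirt6-KD cells (S5 to S8) received a mixture of ShSirt6 clones, so a Sirt6-KD library is a mixed population of cells carrying different hairpins. There were 4 libraries in each group. The series record describes cells from separate rats with their own controls, but no label ties a Sirt6-KD library to the Sirt6-Ctrl library of the same rat, and p-values therefore measure the spread between libraries within the groups. Whether the cells for RNA were kept under the low oxygen that the methods give for the protein check is not stated in the sources used here.

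In the Hippo pathway, the kinases LATS1 and LATS2 phosphorylate the coactivators YAP and TAZ, which are then held in the cytoplasm or degraded. Unphosphorylated YAP and TAZ enter the nucleus and bind TEAD factors, which carry them to genes such as Ankrd1, Ccn1 and Ccn2. Angiomotin family proteins bind YAP at junctions and on actin, LIM proteins of the Ajuba family bind LATS kinases, and Lats2 and Amotl2 are themselves known YAP targets that feed back on the pathway. The activity of YAP and TAZ is set largely by their phosphorylation and location, which RNA-seq does not measure. NP cells are notochord-derived cells that live under load, low oxygen and high osmolarity in the centre of the intervertebral disc.

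TEAD factors recognise a short element, CATTCC on either strand, and promoter sequences are shown for the genes that carry it just before their start site. RefSeq sequences on the GRCr8 build, covering 250 bases before the start, were matched for 7 of the 10 genes. The element, or its reverse complement GGAATG, was present for 3 of these, Yap1, Amotl2 and Ajuba. Amotl1 has several start sites in the table, so the 7 genes had 11 windows, of which 3 held the element, and 12.1% of all 33469 rat windows of this length held it. In the sequences, written 5′ to 3′ on the strand of the gene, capitals mark the element. It lay 116 bases before the start of Yap1 (minus strand, chr8:13451438-13451687), 76 bases before the start of Amotl2 (plus strand, chr8:112182376-112182625) and 236 bases before the start of Ajuba (minus strand, chr15:32000043-32000292).
Yap1: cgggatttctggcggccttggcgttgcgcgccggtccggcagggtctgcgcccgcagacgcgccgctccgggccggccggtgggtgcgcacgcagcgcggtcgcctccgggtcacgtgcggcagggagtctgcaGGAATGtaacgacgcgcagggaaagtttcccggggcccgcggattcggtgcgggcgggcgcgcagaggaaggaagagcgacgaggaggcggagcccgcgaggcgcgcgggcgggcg
Amotl2: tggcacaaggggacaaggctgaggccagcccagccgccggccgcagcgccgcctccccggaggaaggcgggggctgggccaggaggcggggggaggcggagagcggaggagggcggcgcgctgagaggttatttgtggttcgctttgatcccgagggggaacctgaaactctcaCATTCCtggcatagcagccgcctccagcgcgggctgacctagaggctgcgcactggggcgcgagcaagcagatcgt
Ajuba: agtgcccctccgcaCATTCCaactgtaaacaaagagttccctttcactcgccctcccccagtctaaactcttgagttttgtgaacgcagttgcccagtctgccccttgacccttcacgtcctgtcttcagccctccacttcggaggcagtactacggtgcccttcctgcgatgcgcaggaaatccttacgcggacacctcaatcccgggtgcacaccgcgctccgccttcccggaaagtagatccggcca
These matches describe letters in a window, and binding of TEAD factors was not measured. Of the 3 genes that held the element, Ajuba was called higher in Sirt6-KD cells, while Yap1 and Amotl2 were not.

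The libraries held 31994838 to 40124813 counts in Sirt6-Ctrl and 32382957 to 36600792 in Sirt6-KD (p = 0.257, exact two-sided permutation test). ERCC spike-in RNAs, a fixed mixture of synthetic transcripts, took 2.97 to 9.80% of counts in Sirt6-Ctrl and 2.15 to 2.47% in Sirt6-KD (p = 0.0286, exact permutation test, the smallest p that 4 against 4 libraries allow). The highest shares were in S1 at 6.27% and S2 at 9.80%. Sirt6 itself, in CPM (counts scaled to a common library size after TMM normalisation), stood at 56.4, 54.3, 52.5 and 47.6 in S1 to S4 and at 21.8, 21.0, 19.2 and 20.6 in S5 to S8, so every Sirt6-KD library lay below every Sirt6-Ctrl library (log2 fold change -1.35, SE 0.13, adjusted p = 7.13e-04). Of 12 NP markers, 7 were named. Their summed level was 66.6 to 109 CPM in Sirt6-Ctrl and 39.3 to 61.6 CPM in Sirt6-KD. Krt8 and Car3 were called lower, as were 10.7% of all genes. The other 5 were not called, and 3 of them had positive log2 fold changes (Foxa1 1.89, SE 1.08, Foxa2 1.499, SE 1.61, and Sox9 0.48, SE 0.43). Foxa1 and Foxa2 had few counts, 1 to 54 and 0 to 64 a library. Cd24 (-0.98, SE 0.32, adjusted p = 0.0537 in edgeR) and Acan (-0.62, SE 0.63) had negative log2 fold changes. Tbxt, Krt18, Krt19, Shh and Col2a1 were not analysed here.

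Sirt6 knockdown was accompanied by higher mRNA for 4 of the 10 Hippo genes, Tead1, Amotl1, Lats1 and Ajuba, and none of the 10 was called lower. A gene was called where the adjusted p of edgeR's quasi-likelihood test, corrected over all rows tested, was below 0.05 and the fold change was above 1.5. The change was 4.13-fold for Tead1, 2.31-fold for Amotl1 and 1.64-fold for both Lats1 and Ajuba. Over all genes tested, 8.02% were called higher and 10.7% lower. DESeq2 and limma-voom also called 4 of the 10 genes higher and 0 lower, and at an unadjusted p below 0.05 in edgeR 5 were higher and 0 lower. The shares of all genes given above hold for edgeR's calls only, and DESeq2 called more of all genes higher than edgeR did. The remaining 6 genes were not called, and of these Yap1, Wwtr1, Tead3, Lats2 and Amotl2 had positive fold changes and Ankrd1 a negative one. The median log2 fold change of the 10 genes was 0.45, beside -0.016 over all genes. In 5 genes the 4 Sirt6-KD libraries all lay above the 4 Sirt6-Ctrl libraries (Tead1, Lats1, Lats2, Amotl1 and Ajuba), a separation that 14.8% of all genes showed. These are bulk RNA values, in which a change in the share of cells expressing a gene and a change in RNA per cell cannot be told apart.

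**Figure D1:**
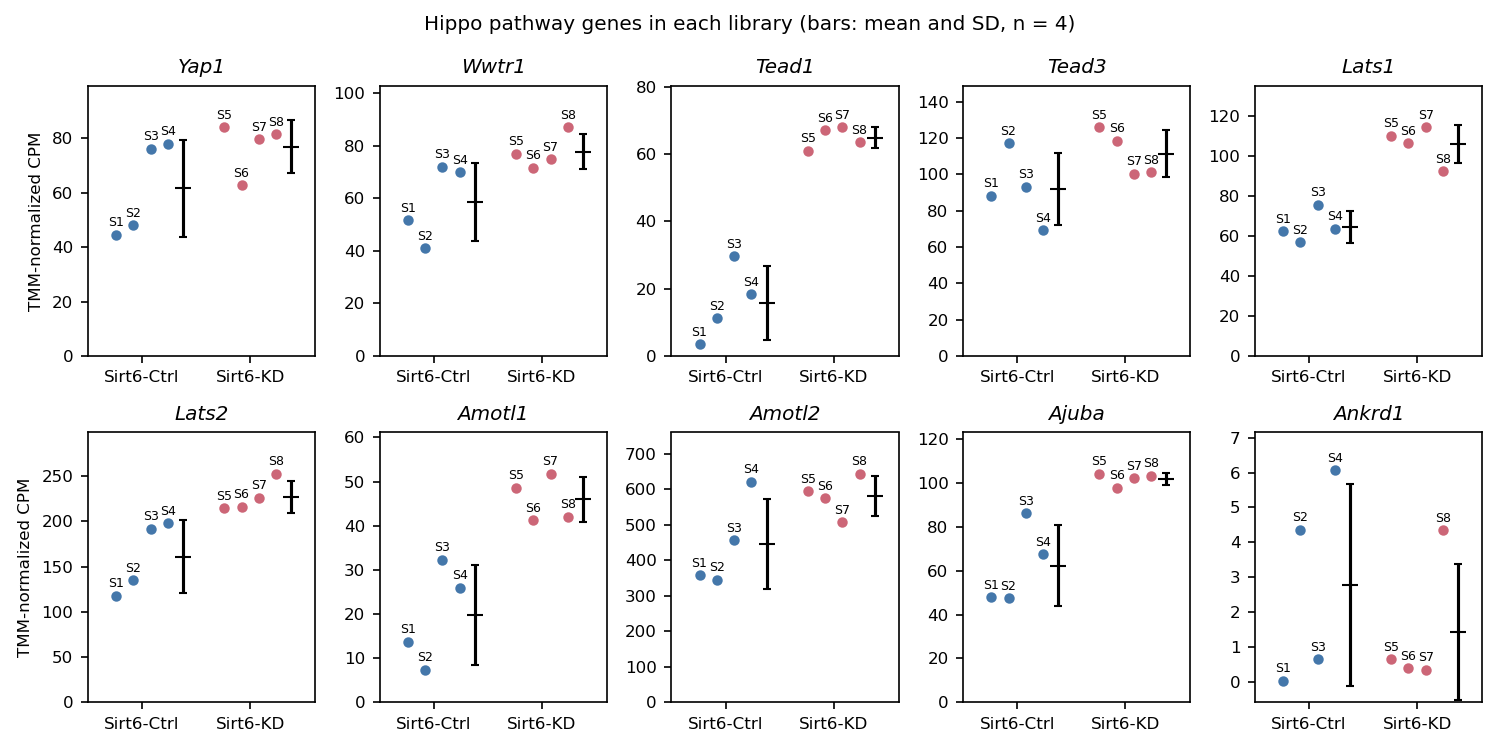
TMM-normalised CPM (y axis) of each Hippo gene in every library of Sirt6-Ctrl (blue, S1 to S4) and Sirt6-KD (red, S5 to S8); each point is 1 library and the black bars are the mean and SD of 4 libraries. Tead1, Lats1, Lats2, Amotl1 and Ajuba separate the groups, whereas Yap1, Wwtr1, Tead3, Amotl2 and Ankrd1 overlap.

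Neither coactivator was called. Yap1 (ENSRNOG00000005933) stood at 44.7, 48.1, 76.2 and 78.1 CPM in S1 to S4 and at 84.1, 62.7, 79.7 and 81.5 CPM in S5 to S8. S5, S7 and S8 lay just above S3 and S4, S6 lay below them, and S1 and S2 were lower than every Sirt6-KD library. The log2 fold change was 0.32 (SE 0.21, 95% interval -0.14 to 0.77, adjusted p = 0.292). Wwtr1 (ENSRNOG00000016617), the gene for the paralog TAZ, had 51.5, 41.0, 71.9 and 69.7 CPM in Sirt6-Ctrl and 76.9, 71.6, 74.9 and 87.0 CPM in Sirt6-KD. Its pattern across libraries resembled that of Yap1, with S1 and S2 low and the lowest Sirt6-KD library just under S3. Its log2 fold change was 0.41 (SE 0.18, adjusted p = 0.137), and the upper end of the 95% interval, 0.81, does not exclude a rise above 1.5-fold for either gene. Without S1 and S2 the log2 fold change fell to 0.0077 for Yap1 and 0.14 for Wwtr1, and a correction for gene length turned both below 0, to -0.051 and -0.081 (0.089 and 0.058 above the median gene, which that correction moved to -0.14).

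Tead1 (ENSRNOG00000015488), which encodes the factor through which YAP and TAZ bind DNA in many cells, changed most among the 10 genes. Its level was 3.51, 11.3, 29.7 and 18.3 CPM in S1 to S4 and 60.9, 67.0, 67.9 and 63.5 CPM in S5 to S8. The Sirt6-KD libraries were close together, their highest only 1.12 times their lowest, while the Sirt6-Ctrl libraries spanned 8.46-fold and none reached the Sirt6-KD range. The means were 15.7 ± 11.1 and 64.8 ± 3.24 CPM (SD, n = 4), and the log2 fold change was 2.05 (SE 0.48, 95% interval 0.98 to 3.11, adjusted p = 0.0161), above that of 98.1% of all genes. Tead1 was called without each of the 8 libraries in turn, with log2 fold changes from 1.73 to 2.55. Without both S1 and S2, the libraries where it was lowest, the log2 fold change was 1.44 and it was still called (adjusted p = 0.00556), with the Sirt6-KD mean 2.70 times that of S3 and S4. Tead3 (ENSRNOG00000000506), a second TEAD gene, behaved differently across the same libraries. It had 88.2, 117, 93.2 and 69.4 CPM in Sirt6-Ctrl and 126, 118, 100.3 and 101 CPM in Sirt6-KD, so that S2 lay inside the Sirt6-KD range. Its log2 fold change was 0.28 (SE 0.17, 95% interval -0.09 to 0.65, adjusted p = 0.256), and without S1 and S2 it was 0.46 (adjusted p = 0.0908). S2, low for most of the 10 genes, was the highest Sirt6-Ctrl library for Tead3.

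Among the kinases, Lats1 (ENSRNOG00000014916) was called higher. Its level was 62.4, 56.7, 75.6 and 63.5 CPM in Sirt6-Ctrl and 109.9, 106, 114 and 92.4 CPM in Sirt6-KD. Both groups were tight, and the lowest Sirt6-KD library, S8, still lay above the highest Sirt6-Ctrl library, S3. The means were 64.6 ± 7.96 and 106 ± 9.48 CPM (SD, n = 4) and the log2 fold change was 0.71 (SE 0.13, 95% interval 0.42 to 1.01, adjusted p = 0.00713). Lats1 was called without each library in turn and without S1 and S2 together (0.61, adjusted p = 0.0232). After the length correction its adjusted p was 0.0201 but its log2 fold change of 0.55 no longer passed 1.5-fold. That correction moved the median gene to -0.14, and relative to it Lats1 stood at 0.69. Lats2 (ENSRNOG00000056343), its paralog and a known YAP target, had 118, 135, 192 and 198 CPM in Sirt6-Ctrl and 214, 216, 226 and 253 CPM in Sirt6-KD. Here too the groups did not overlap, but the gap between S4 and S5 was small beside the distance of S1 and S2 from S3 and S4. The log2 fold change was 0.50 (SE 0.18, 95% interval 0.11 to 0.89, adjusted p = 0.0675), and Lats2 was not called. It passed without S3 (0.60, adjusted p = 0.0328) and without S4 (0.61, adjusted p = 0.0369), and it dropped to 0.23 without S1 and S2. DESeq2 (0.52, adjusted p = 0.0404) and limma-voom (0.53, adjusted p = 0.0444) put its adjusted p below 0.05 but its change below 1.5-fold.

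Of the angiomotin genes, which encode junction proteins that bind YAP, Amotl1 was called higher and Amotl2 was not. Amotl1 (ENSRNOG00000008990) had 13.7, 7.42, 32.4 and 26.0 CPM in S1 to S4 and 48.7, 41.3, 51.8 and 42.1 CPM in S5 to S8. The Sirt6-KD libraries were all above S3, the highest Sirt6-Ctrl library, and S2 was lower than S3 by a factor of 4.36. The means were 19.9 ± 11.3 and 46.0 ± 5.09 CPM (SD, n = 4) and the log2 fold change was 1.21 (SE 0.37, 95% interval 0.38 to 2.04, adjusted p = 0.0423). This call was lost without S1 (adjusted p = 0.120), S5 (0.0975), S6 (0.0844), S7 (0.105) or S8 (0.0778), with log2 fold changes from 0.95 to 1.55 over the 8 fits that left out 1 library. Without S1 and S2 together it was kept (0.67, adjusted p = 0.0307), and after the length correction it was lost (0.80, adjusted p = 0.0538). Amotl2 (ENSRNOG00000008487) had 358, 345, 456 and 621 CPM in Sirt6-Ctrl and 594, 575, 507 and 643 CPM in Sirt6-KD. S4 lay inside the Sirt6-KD range and the other Sirt6-Ctrl libraries below it. Its log2 fold change was 0.38 (SE 0.19, 95% interval -0.05 to 0.81, adjusted p = 0.181), and it dropped to 0.12 without S1 and S2. Without S4 it was 0.583 (adjusted p = 0.0263 in edgeR), just below 1.5-fold. Amotl2 was not called in any of the 20 alternative analyses.

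Ajuba (ENSRNOG00000012791), a LIM-domain adaptor that binds LATS kinases and is itself listed among YAP and TAZ targets, had 47.9, 47.5, 86.0 and 67.5 CPM in Sirt6-Ctrl and 104, 97.8, 102 and 103 CPM in Sirt6-KD. The Sirt6-KD libraries were nearly equal and all higher than S3, the highest Sirt6-Ctrl library. The means were 62.2 ± 18.4 and 102 ± 2.81 CPM (SD, n = 4) and the log2 fold change was 0.71 (SE 0.19, 95% interval 0.29 to 1.13, adjusted p = 0.0254). The call was lost without S1 (adjusted p = 0.0737), S5 (0.0690), S6 (0.0647), S7 (0.0670) or S8 (0.0595), and without S1 and S2 together the log2 fold change was 0.42 (adjusted p = 0.0663). After the length correction Ajuba was still called (0.78, adjusted p = 0.0214).

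Ankrd1 (ENSRNOG00000018598), a nuclear ankyrin-repeat protein whose gene is widely used as a readout of YAP and TAZ, had few counts. Raw counts were 1, 141, 22 and 250 in S1 to S4 and 22, 13, 13 and 147 in S5 to S8. High and low libraries occurred in both groups, S2, S4 and S8 being high and the other 5 low. The log2 fold change was -0.96 with a wide error (SE 1.24, 95% interval -3.70 to 1.78, adjusted p = 0.619), ranging from -0.24 without S4 to -2.56 without S8, and it was -1.22 without S1 and S2. With this spread between libraries a change of Ankrd1 in either direction was not resolved. Ccn1 and Ccn2, secreted matricellular proteins and the other common readouts, were abundant. Ccn1 lay between 579.6 and 828 CPM in Sirt6-Ctrl and between 481 and 687 CPM in Sirt6-KD (log2 fold change -0.24, SE 0.17, adjusted p = 0.348). Ccn2 lay between 3509 and 5224 CPM in Sirt6-Ctrl and between 4927 and 6574 CPM in Sirt6-KD (0.42, SE 0.17, adjusted p = 0.105). Neither was called, and both overlapped between the groups.

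**Figure D2:**
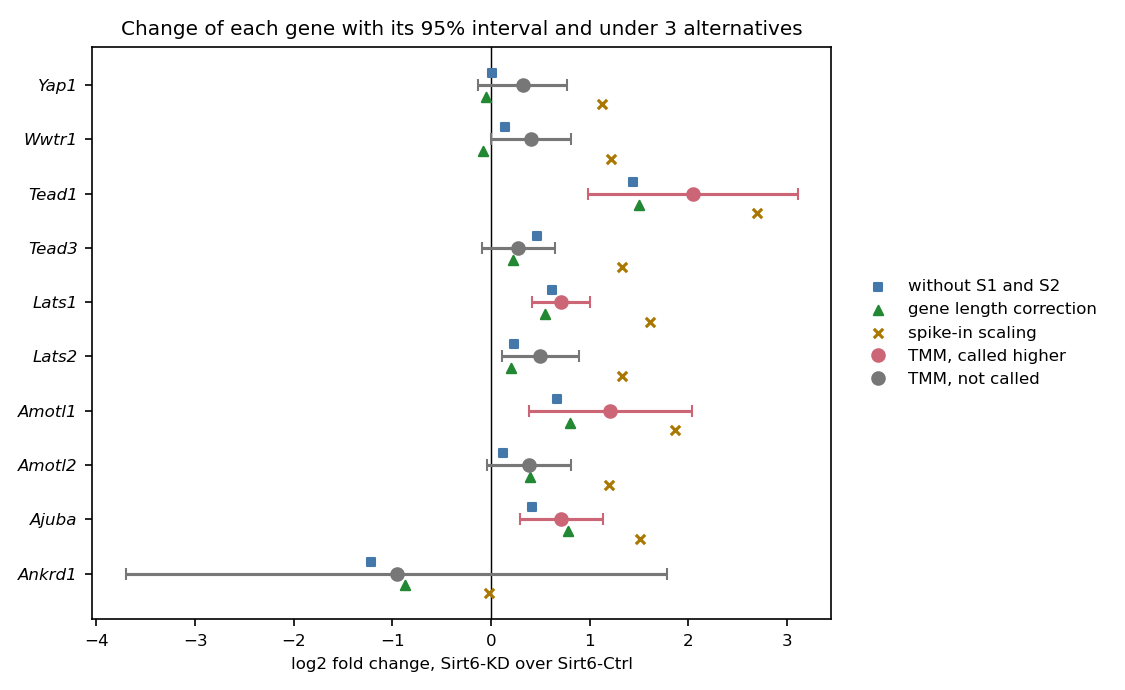
Change of each Hippo gene with knockdown (x axis, log2 fold change relative to Sirt6-Ctrl), with the 95% interval of the edgeR fit; red circles are called higher and grey circles are not, and small symbols give the value without S1 and S2, after length correction and under spike-in scaling. Tead1 is farthest to the right at 2.05, Ankrd1 has the widest interval, and spike-in scaling moves the values of all 10 genes to the right.

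The size of these changes depended on how the libraries were scaled. TMM scaling, which assumes that most genes do not change, put the median of all genes at -0.016. Scaling to the ERCC spike-ins moved that median to 0.94, with every member except Ankrd1 between 1.12 (Yap1) and 2.70 (Tead1) on the log2 scale. No member was called under spike-in scaling, where the lowest adjusted p among the 10 genes was 0.0783, for Tead1. Sirt6, the gene knocked down, was not called there either (log2 fold change -0.36, adjusted p = 0.567 in edgeR). It stood at -1.31 relative to the median gene, so the loss of calls under this scaling was not particular to the Hippo genes. Relative to the median gene under that scaling, Tead1 stood at 1.75, Amotl1 at 0.92, Lats1 at 0.67 and Ajuba at 0.57. A test against the 1.5-fold threshold itself (glmTreat) also called none of the 10.

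Sirt6-Ctrl libraries also differed among themselves in many of these genes. S1 and S2 were both below S3 and S4 in 8 of the 10 genes, the exceptions being Tead3 and Ankrd1. Among all genes, 23.7% had that order, and among all genes called higher 49.95% had it. These are also the libraries with the largest spike-in share, and the part of that in the results was tested only by leaving them out, as given beside each gene. The coefficient of variation was larger in Sirt6-Ctrl than in Sirt6-KD for 9 of the 10 genes, as for 85.6% of all genes.

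Paralogs were next compared within each library, since the ratio of 2 counts from 1 library does not depend on how libraries are scaled. The ratios are of raw counts without correction for transcript length, so their size does not say which paralog is more abundant and only their difference between groups is read. The count ratio of Tead3 to Tead1 was 25.1, 10.4, 3.14 and 3.78 in S1 to S4 and 2.07, 1.77, 1.48 and 1.59 in S5 to S8. Every Sirt6-KD library lay below every Sirt6-Ctrl library, and the ratio differed by -2.12 on the log2 scale (p = 0.0286, exact two-sided permutation test, adjusted p = 0.114 over 4 ratios). The ratio of Amotl2 to Amotl1 was 26.1, 46.4, 14.1 and 23.9 in Sirt6-Ctrl and 12.2, 13.9, 9.79 and 15.3 in Sirt6-KD. S3 fell within the Sirt6-KD range, and the difference was -1.001 (p = 0.0571, exact permutation test, adjusted p = 0.114). The Lats2 to Lats1 ratio was between 1.89 and 3.12 in Sirt6-Ctrl and between 1.95 and 2.74 in Sirt6-KD (difference -0.18, exact permutation p = 0.371, adjusted p = 0.495). The Wwtr1 to Yap1 ratio was between 0.854 and 1.15 and between 0.914 and 1.14 (difference 0.084, exact permutation p = 0.543, adjusted p = 0.543). After adjustment none of the 4 ratios passed, and with 4 libraries a group the smallest p available before adjustment is 0.0286. A ratio at that p could not pass after adjustment unless other ratios separated the groups too. The adjusted test therefore cannot decide on the Tead3 to Tead1 ratio by itself. Without S1 and S2 the differences of the TEAD and angiomotin ratios were -1.01 and -0.54.

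**Figure D3:**
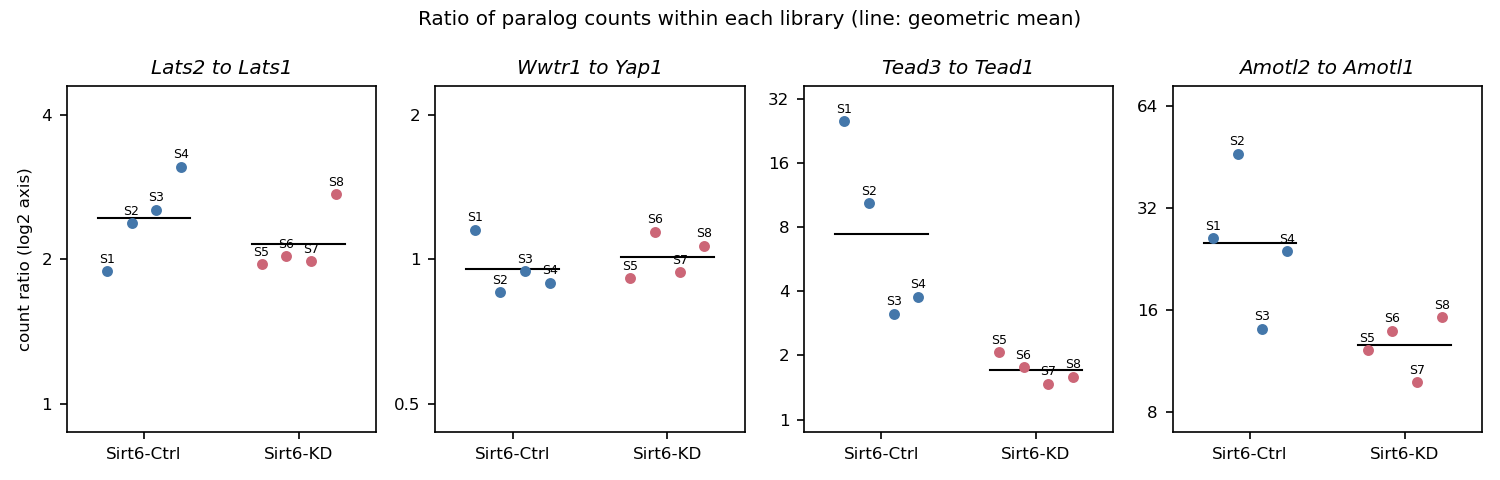
Ratio of raw counts of paralogs within each library (y axis, log2 scale) in Sirt6-Ctrl (blue) and Sirt6-KD (red); each point is 1 library and the line is the geometric mean of 4. The Tead3 to Tead1 ratio is lower in all 4 Sirt6-KD libraries, at 1.48 to 2.07, than in any Sirt6-Ctrl library, while the Lats and Wwtr1 to Yap1 ratios overlap.

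To place the 10 genes in their pathway, the remaining Hippo genes were taken in groups by role, with the 10 genes left out. These lists, like the 10 genes, were chosen with earlier results of these data known, so their counts are descriptive and not an independent test. Over all lists 83 further genes were tested, of which 19 were called higher and 2 lower (8.02% and 10.7% of all genes), with a median log2 fold change of 0.31 beside -0.016 for all genes. DESeq2 and limma-voom each called 23 of them higher and 2 lower. The shares given apply to the edgeR counts only, since DESeq2 called more of all genes higher. The core kinase cassette and its scaffolds, which act with and above Lats1 and Lats2, held 20 further tested genes, of which 4 were called higher and 1 lower (median 0.13). The higher genes were Mob1b (log2 fold change 1.04, adjusted p = 0.0251), a coactivator of LATS kinases, Taok1 (1.01, adjusted p = 0.0151), a kinase that activates MST, Frmd6 (0.998, adjusted p = 0.00950), a FERM-domain protein, and Map4k4 (0.70, adjusted p = 0.0195), which can phosphorylate LATS in parallel to MST. Rassf1, a scaffold that binds MST kinases, had 99.6, 89.6, 70.7 and 62.0 CPM in Sirt6-Ctrl and 40.1, 39.2, 37.5 and 28.4 CPM in Sirt6-KD. It was lower in every Sirt6-KD library (-1.15, adjusted p = 0.00435), against the direction of Lats1. Frmd6 and Rassf1 were called without each library in turn. The Mob1b call was lost without S5, S6, S7 or S8 (adjusted p from 0.0578 to 0.0777), that of Map4k4 without S1, S5, S6 or S7 (0.0522 to 0.0648) and that of Taok1 without S7 (0.0516). Without S1 and S2 Map4k4 was not called either (0.52, adjusted p = 0.0750). After length correction Map4k4 (0.16, adjusted p = 0.530) and Taok1 (0.53, below 1.5-fold) were not called, while Mob1b, Frmd6 and Rassf1 were. Relative to the median gene, which that correction moved to -0.14, Map4k4 stood at 0.30 and Taok1 at 0.67.

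Next to Yap1, Wwtr1, Tead1 and Tead3, 5 further TEAD and VGLL genes were tested and 1 was called higher (8.02% of all genes), with a median of 0.71. It was Vgll4 (0.73, adjusted p = 0.0304), which competes with YAP for TEAD binding. Its levels were 24.9, 16.6, 34.2 and 27.5 CPM in Sirt6-Ctrl and 44.3, 44.6, 42.9 and 39.5 CPM in Sirt6-KD, without overlap. The call was lost without S1, S2, S5, S6, S7 or S8, with log2 fold changes from 0.58 to 0.89 over the 8 fits. It was also lost without S1 and S2 together (0.49, adjusted p = 0.0573) and after length correction (0.26, adjusted p = 0.252). Junctional and LIM-domain regulators, the group of Amotl1, Amotl2 and Ajuba, held 17 further tested genes. In the edgeR test 7 were called higher and 0 lower (8.02% and 10.7% of all genes), with 1 lower at an unadjusted p below 0.05 and a median of 0.68. The leading ones were Fat3 (2.25, adjusted p = 0.0259), an atypical cadherin at 0.309 to 3.76 CPM in Sirt6-Ctrl and 6.60 to 11.7 CPM in Sirt6-KD, Ptpn14 (1.37, adjusted p = 0.0215), a phosphatase that binds YAP, Tjp1 (1.09, adjusted p = 0.00217), the tight junction protein ZO-1, and Dchs1 (0.91, adjusted p = 0.00634), a cadherin ligand of FAT4. Tjp1 and Dchs1 were called without each library in turn. The Fat3 call was lost without S1, S5, S6, S7 or S8 (adjusted p from 0.0550 to 0.0753) and the Ptpn14 call without S1, S5, S6 or S8 (0.0559 to 0.0695). After length correction Tjp1 fell to 0.38 and was not called, while Fat3, Ptpn14 and Dchs1 were.

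Among YAP and TAZ target genes, 20 besides Ankrd1, Lats2, Amotl2 and Ajuba were tested. In the edgeR test 7 were called higher and 0 lower (8.02% and 10.7% of all genes), with 0 lower at an unadjusted p below 0.05 and a median of 0.62. The largest changes were those of Dock5 (1.83, adjusted p = 0.00448), a guanine nucleotide exchange factor, and Crim1 (1.51, adjusted p = 0.0141), a membrane protein that binds BMPs. They were followed by Ptpn14, by Myof (1.32, adjusted p = 0.00378), the membrane repair protein myoferlin, and by Axl (1.13, adjusted p = 0.00845), a receptor tyrosine kinase. Dock5 had 27.4, 33.9, 80.4 and 35.9 CPM in Sirt6-Ctrl and 156, 168, 159 and 147 CPM in Sirt6-KD. Axl had 222, 250, 435 and 424 CPM in Sirt6-Ctrl and 725, 721, 715 and 745 CPM in Sirt6-KD. All 4 Sirt6-KD libraries were above all Sirt6-Ctrl libraries for both genes, and within Sirt6-Ctrl S1 and S2 were again the lowest. Dock5, Crim1, Myof and Axl were called without each library in turn, without S1 and S2 together and after length correction, but not under spike-in scaling. Ankrd1, Ccn1 and Ccn2 belong to the same list and were not called. Some genes called higher here, Ptpn14 among them, are also counted in the junctional list, so the counts of the 2 lists are not separate results.

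**Figure D4:**
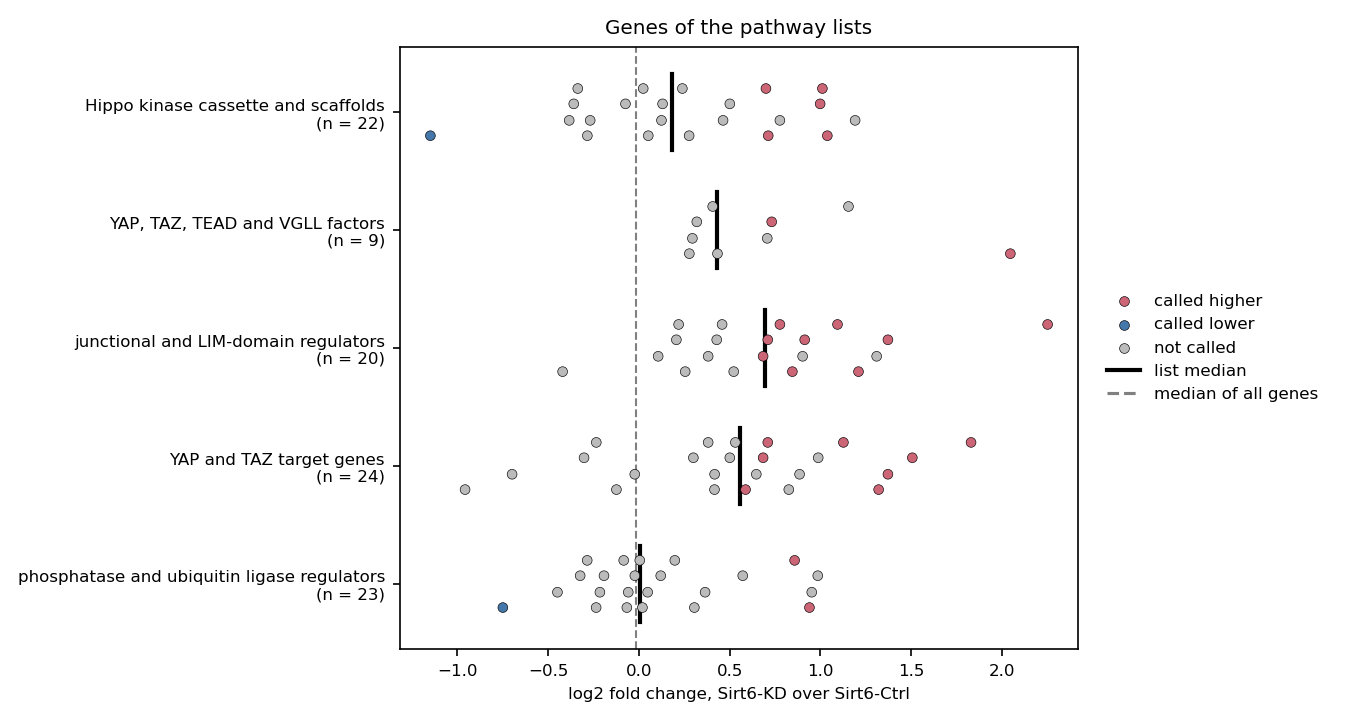
Change with knockdown (x axis, log2 fold change relative to Sirt6-Ctrl) of every tested gene of 5 Hippo gene lists (rows, number of genes in parentheses), the 10 members included; points are genes coloured by call, black bars are list medians and the dashed line is the median of all genes. Junctional regulators lie farthest to the right as a list, with 9 of 20 genes called higher (8.02% of all genes), while the phosphatase and ubiquitin ligase list is centred near 0.

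Markers of other cell types were read beside these results. The summed level of 6 fibroblast and annulus fibrosus markers, nearly all of it from Col1a1, was 13677 to 25964 CPM in Sirt6-Ctrl. In Sirt6-KD it was 8340 to 17878 CPM, so the groups overlapped. Of the 6 markers, 1 (Scx) was called lower (10.7% of all genes). Log2 fold changes were negative for 5 and positive only for Pdgfra (0.82, SE 0.40). Of 8 leukocyte markers only Cd68, Cd14 and Csf1r were named, at a summed 11.9 to 29.7 CPM and 15.0 to 23.9 CPM, and Ptprc was not analysed here. Of 7 endothelial markers only Tek was named, at no more than 0.592 CPM in any library. The part of these markers and of the NP markers in the changes of the Hippo genes was not tested.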

How the data were processed

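RNA-seq was analysed from primary rat NP cells, 4 Sirt6-Ctrl and 4 Sirt6-KD libraries, grouped by the genotype label. The authors deposited a table of raw counts for 32975 rows, 92 of them ERCC spike-ins. Processing notes of the submitters name Trimmomatic 0.36, STAR 2.5.2b, featureCounts of Subread 1.5.2, DESeq2 and the build Rnor_6.0, and strandedness is not given in the sources used here. A second deposited table, of 13612 rows, holds normalised signal (the counts divided by a size factor for each library) and was used here only to pair IDs with symbols. Its log2 fold changes and p-values are the authors' own comparison and were not used.

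The counts were fitted in edgeR 4.0.16 (R 4.3.3) with filterByExpr, TMM scaling and the two-sided quasi-likelihood F-test on 13313 rows (13250 genes and 63 spike-ins), with no covariate. P-values were adjusted by Benjamini-Hochberg over all rows, and genes were called at adjusted p below 0.05 and fold change above 1.5. CPM are TMM-normalised and are not corrected for length. SE is the log2 fold change divided by the square root of F, and 95% intervals use edgeR's degrees of freedom. The method was tested on simulated data with the same spread between libraries in both groups, so the larger spread in Sirt6-Ctrl was not covered. Depth was 31994838 to 40124813 counts a library, and a floor of 3 counts corresponds to 0.0748 to 0.0938 CPM (counting error only). Replicate libraries all differed beyond counting noise (chi-square per degree of freedom at least 18.3). Paralog ratios used log2 of counts plus 0.5 and exact permutation tests.

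The 10 genes and the lists were chosen with earlier results of these data known. Named genes were the 10 members, Sirt6, Ccn1, Ccn2 and, from each pathway list, the called genes, at most the 5 largest rises and 5 largest falls. Alternatives were RLE, upper quartile and spike-in scaling, removal of spike-in rows, no filter or a minimum of 10 counts in every library of a group, DESeq2 1.42.0, limma-voom (limma 3.58.1), adjusted p alone, glmTreat, each library left out, S1 and S2 left out, and a loess correction for gene length. Length was the genomic span of the gene in RefSeq, matched for 86% of genes, not transcript length. Promoters were taken from RefSeq (GRCr8), without mixing builds.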

Additional observations from a re-analysis of the deposited data

Results flagged for a closer look

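Among the 60 sets of 4 libraries examined (each named gene in each group), 2 had 1 library far from the other 3, where chance flags about 1 in 20, or 3 sets. Ankrd1 in Sirt6-KD was highest in S8, at 4.35 CPM, and the gap from S8 to the nearest library was 0.926 of the range of the group. Dock5 in Sirt6-Ctrl was highest in S3, at 80.4 CPM, with a gap of 0.840 of the range.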

How the results depend on the processing

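Over 20 alternative analyses, 175 of 200 values of the 10 genes kept their direction and their side of the threshold. Of the others, 21 lost the call, 2 gained it (Lats2 without S3 and without S4) and 2 changed sign (length correction, Yap1 -0.051 and Wwtr1 -0.081). Genes not called in the main fit counted as kept while they stayed uncalled, and all 21 losses fell on the 4 called genes. Of the 20 alternatives, Tead1 was called in 18, Lats1 in 17, and Amotl1 and Ajuba in 12 each. Members called higher numbered 4 by TMM, RLE and upper quartile scaling, DESeq2 and limma-voom, 2 after length correction, 3 without S1 and S2, 0 under spike-in scaling and 0 by glmTreat, and 2 to 5 with 1 library left out (2 without S1, S5, S6, S7 or S8). The 19 other Hippo list genes called higher became 0, 3 and 12 under spike-in scaling, glmTreat and length correction, and 11 to 26 with 1 library left out. The 2 called lower became 0, 0 and 7 in these analyses, 4 by adjusted p alone, and stayed at 2 with any library left out. Length correction also moved the median of all genes to -0.14, which lowers the values of list genes with it. Over all genes, 1063 called higher became 20 (spike-in scaling), 92 (glmTreat), 647 (length correction) and 1602 (DESeq2), and 445 to 1699 with 1 library left out; 1416 called lower became 4 (spike-in scaling), 185 (glmTreat) and 709 (without S1 and S2), and 700.0 to 1913 with 1 library left out. Under spike-in scaling the log2 fold changes of Ppp2cb and Ccn1 turned to 0.31 and 0.71, which are -0.64 and -0.24 relative to the median gene. Leaving out a library also reduces the number of samples; other causes were not tested. No paired analysis was possible because no label or column gives a rat or replicate number shared by the groups. Ankrd1 had 1 to 250 counts a library and varied widely within both groups.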

Other observations

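Regulators of the pathway by dephosphorylation and ubiquitination, a group with none of the 10 genes, were centred near 0. Of 23 tested, 2 were called higher and 1 lower, with a median log2 fold change of 0.0044 beside -0.016 over all genes. Over all genes 8.02% were called higher and 10.7% lower, so these calls did not set the list apart. The higher genes were the ubiquitin ligases Nedd4l, at 25.7 to 49.2 CPM in Sirt6-Ctrl and 61.2 to 77.0 CPM in Sirt6-KD (log2 fold change 0.94, adjusted p = 0.0158 in edgeR), and Nedd4, at 743 to 1118 CPM and 1538 to 1720 CPM (0.86, adjusted p = 0.00658). Ppp2cb, a catalytic subunit of the phosphatase PP2A, was lower, at 160 to 228 CPM in Sirt6-Ctrl and 102 to 116 CPM in Sirt6-KD (-0.75, adjusted p = 0.00667). The groups did not overlap for any of these 3 genes. With Sirt6-KD higher, as for Nedd4l and Nedd4, 14.8% of all genes showed such a separation. The share with Sirt6-KD lower, as for Ppp2cb, was not counted. Nedd4 and Ppp2cb were called without each library in turn, and Nedd4l was lost without S7 (adjusted p = 0.0531). Without S1 and S2 together Ppp2cb was not called, at -0.57 (adjusted p = 0.0130, below 1.5-fold). After length correction Nedd4l (0.17) and Nedd4 (0.43) were no longer called and Ppp2cb (-0.83) was.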
